A study of Mus musculus with 4 samples.

Results

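Dopamine receptors and the proteins that make, package and break down monoamines were examined in the hippocampus of wild-type (WT) mice and of Lsd1 knock-in (KI) mice. Expression was taken for 9 listed genes, matched by symbol to Ensembl gene identifiers, out of 26328 genes listed in at least 1 sample. These were the 5 dopamine receptor genes Drd1, Drd2, Drd3, Drd4 and Drd5, the vesicular transporter gene Slc18a2, the monoamine oxidase genes Maoa and Maob, and the decarboxylase gene Ddc. Poly(A) RNA was sequenced from 2 WT and 2 KI samples of hippocampal tissue, from mice that were all male and of strain C57BL/6. The KI animals carry Lsd1 SA/SA, in which the serine of the histone demethylase LSD1 that is phosphorylated by PKCα is replaced by alanine, in every cell and on both alleles, and they differ from the control group by no other labelled allele or treatment. The labels give an age of 8 to 15 weeks for the littermates of the behavioural experiments and none for the RNA samples. Nothing states whether a sample was 1 animal or a pool, so that p-values measure the spread between these samples, which may be technical.

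Dopamine acts through G protein-coupled receptors of a D1 class (Drd1 and Drd5), which raise cAMP, and a D2 class (Drd2, Drd3 and Drd4), which lower it. Ddc encodes aromatic L-amino acid decarboxylase, which forms dopamine and serotonin, Slc18a2 encodes VMAT2, which loads monoamines into synaptic vesicles, and Maoa and Maob encode mitochondrial enzymes that oxidise them. The cell bodies of the dopamine neurons that project to the hippocampus lie in the midbrain, so hippocampal tissue holds their axons and local receptor-bearing cells but few of the transcripts made in those cell bodies.

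The genes lie on 8 chromosomes of GRCm38 (mm10) in GENCODE M21. Drd2 (ENSMUSG00000032259) is at chr9:49340627-49408177 on the plus strand, Slc18a2 (ENSMUSG00000025094) at chr19:59260896-59296012 on the plus strand, and Ddc (ENSMUSG00000020182) at chr11:11814101-11898144 on the minus strand. The 250 bases before the RefSeq start site of these 3 genes are shown because their KI values did not overlap the WT values, as described below. They run 5′ to 3′ on the strand of the gene, from the RefSeq tables for GRCm38.p6. Capitals mark the letters GGGCGG (the GC box) in Drd2 and Slc18a2 and TATAAA (the TATA box) in Ddc, or their reverse complements. The match in Ddc is a reverse complement, with its first base at -68 from the start site. These are matches of letters, and their function was not tested.
Drd2, chr9:49340153-49340402, plus strand: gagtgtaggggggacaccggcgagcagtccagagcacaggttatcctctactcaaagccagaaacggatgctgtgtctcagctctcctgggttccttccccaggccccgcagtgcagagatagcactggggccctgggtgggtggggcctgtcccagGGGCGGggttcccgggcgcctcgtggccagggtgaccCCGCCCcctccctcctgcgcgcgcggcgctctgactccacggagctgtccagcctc
Slc18a2, chr19:59260628-59260877, plus strand: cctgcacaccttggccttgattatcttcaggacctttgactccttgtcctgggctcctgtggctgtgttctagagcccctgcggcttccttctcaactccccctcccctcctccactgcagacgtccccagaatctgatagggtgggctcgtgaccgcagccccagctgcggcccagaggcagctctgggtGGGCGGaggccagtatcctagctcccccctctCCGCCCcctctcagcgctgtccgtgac
Ddc, first of its 2 start sites, chr11:11898145-11898394, minus strand: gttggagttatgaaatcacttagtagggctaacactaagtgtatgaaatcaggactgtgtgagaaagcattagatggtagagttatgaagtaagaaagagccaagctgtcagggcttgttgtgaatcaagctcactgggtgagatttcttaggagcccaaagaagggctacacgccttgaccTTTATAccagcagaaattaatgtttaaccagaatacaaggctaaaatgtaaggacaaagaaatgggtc

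Windows of 300 bases around the start sites were searched for 4 motifs on either strand. The RefSeq table gave 10 windows for 8 of the genes, 2 each for Drd1 and Ddc and none for Maob. GGGCGG was found in 7 of the 10 windows (both of Drd1 and those of Drd2, Drd4, Drd5, Slc18a2 and Maoa), and in 35.7% of the 32851 windows of all genes. TATAAA was found in 1 of the 10, the first of Ddc, and in 13.6% of all windows. Neither CACGTG, the E-box of the circadian clock factors, found in 7.15% of all windows, nor TTCAGCACC, the left part of the RE1 element, found in 0.371%, was found in any of the 10. The GC content of the window was 70.3% in Drd2, and 41.3% and 54.3% at the first and second start sites of Ddc. Which of these sites is used in the hippocampus was not tested.

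The study reported Drd2 and Slc18a2 as upregulated in KI in its RNA-seq, with edgeR and its own thresholds. It measured both genes also by qRT-PCR. By that assay it reported both as increased in KI hippocampus, in more samples of each genotype than were sequenced. It also reported both as increased in cultured hippocampal neurons given a PKC inhibitor. The designed primers show which part of each transcript that assay reads. They are given 5′ to 3′, with no base in capitals.
Drd2 forward: gctcaggagctggaaatgga
Drd2 reverse: gggctataccgggtcctctct
Slc18a2 forward: cggctcctcttgctcatctg
Slc18a2 reverse: tggcgttacccctctcttca
Both Drd2 primers match exon 7 of the 8 exons of the full-length Drd2 transcript and span 65 bases, from chr9:49404767 to 49404831. The Slc18a2 primers match exons 5 and 6 of the 16 exons of the Slc18a2 transcript and span 80 bases of the transcript. RNA-seq reads of the whole gene do not separate the long and short forms of the D2 receptor, which differ by an alternatively spliced exon.

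Expression is given as RPKM, the reads of a gene scaled to the length of its exons and to the mapped reads of the sample, which allows levels of different genes to be compared. A gene not listed for a sample was given 0. The depth, worked out from whole-read steps in the values, ranged from 8827967 mapped reads in WT replicate 2 to 14949756 in KI replicate 2. The 9 genes fell into 3 ranges of level. Over the 4 samples, Maob averaged 8.14 ± 0.95 RPKM, Maoa 7.47 ± 0.16 and Drd5 6.63 ± 0.78 (SD, n = 4), and the ranges of neighbours in this order overlapped. Slc18a2 followed at 2.53 ± 0.64, Drd2 at 1.88 ± 0.70, Drd1 at 1.16 ± 0.16 and Ddc at 1.01 ± 0.15 RPKM, again with overlapping neighbours. Drd4 at 0.047 ± 0.035 and Drd3 at 0.023 ± 0.027 RPKM rested on at most 1 read per sample in the smallest whole-read solution. The gaps between Drd5 and Slc18a2 and between Ddc and Drd4 were the only neighbouring steps whose ranges did not overlap.

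**Figure D1:**
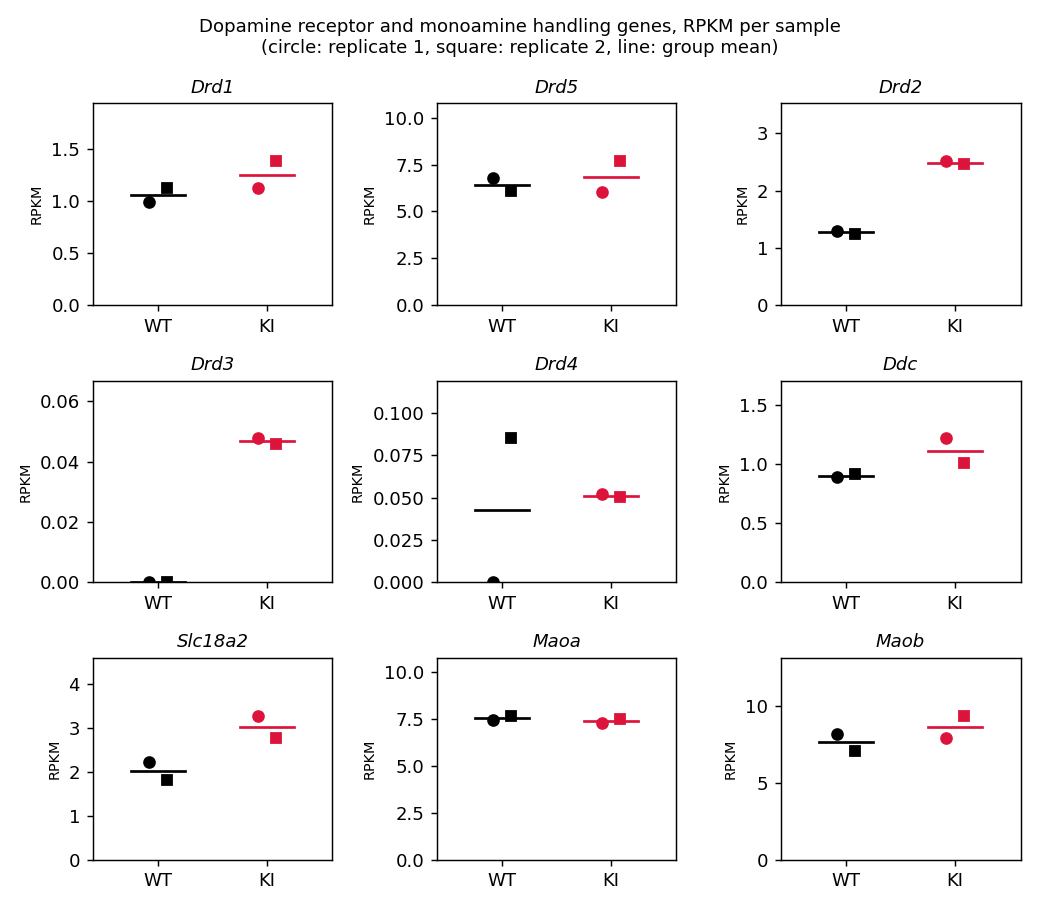
RPKM (y axis, from 0, a scale of its own for each gene) of the 9 genes in 2 WT (black) and 2 KI (red) samples. Points are samples and lines are group means. The KI points of Drd2, Slc18a2 and Ddc lie above both WT points. Those of Drd3 do too, but stand for 1 read each.

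Genotypes were compared on log2(RPKM + 1) with limma over the 18436 genes that reached 0.5 RPKM in 2 or more samples. Of the 9 genes, 7 passed this filter, each of them with at least 0.5 RPKM in every sample, and Drd3 and Drd4 did not. None of the 7 passed the threshold, set at 1.2-fold or more and an adjusted p under 0.1, and 0% of all genes tested did. The KI and WT values were separated, with KI higher, for 3 of the 7 genes (Drd2, Slc18a2 and Ddc), where 24.0% of all genes tested were so placed, and with KI lower for 0 of the 7, against 18.1%. A fitted increase of 1.2-fold or more was found for 2 of the 7, Drd2 and Slc18a2, against 8.73% of all genes. This count is on the log2(RPKM + 1) scale, which understates the change of low genes. The ratio of mean RPKM of Ddc, which is not among the 2, was 1.23. An unadjusted limma p under 0.05 with a higher level in KI was found for 2 of the 7, Drd2 and Slc18a2, against 6.30% of all genes, and with a lower level for 0 of the 7, against 3.33%. The median log2 difference of the 7 genes was 0.15, and that of all genes 0.01. With 2 samples in each group, an exact permutation test of a single gene cannot give a two-sided p under 0.3333.

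Of the D1-class receptors, neither differed between genotypes beyond the spread of the samples. Drd5, the D5 receptor gene, was at 6.76 and 6.06 RPKM in WT and at 6.03 and 7.69 RPKM in KI. Both WT values lay between the KI values. Its log2 fold change was 0.08 with a standard error of 0.13 (limma adjusted p = 0.883), and the 95% interval ran from a ratio of 0.836 to 1.33 on the (RPKM + 1) scale. The 5′ part of Drd5 is overlapped by the antisense gene Gm26560, listed at 3.29 to 4.55 RPKM. The library kit does not mark strand, so reads of both genes in the overlap cannot be told apart. Drd1, the D1 receptor gene, was at 0.994 and 1.12 RPKM in WT and at 1.12 and 1.38 RPKM in KI, from 35 to 73 reads. The higher WT value and the lower KI value met. Its log2 fold change was 0.13 with a standard error of 0.12 (limma adjusted p = 0.776), with an interval from 0.872 to 1.37 as a ratio.

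In the D2 class, Drd2 was at 1.30 and 1.24 RPKM in WT and at 2.51 and 2.46 RPKM in KI. The samples of each genotype lay close together and the groups did not overlap, with ratios between single KI and WT samples of 1.89 to 2.02. The means were 1.27 ± 0.04 and 2.49 ± 0.04 RPKM (SD, n = 2 each), a ratio of 1.96. On the log2(RPKM + 1) scale, which understates the change of low genes, the difference was 0.62 with a standard error of 0.10 and a 95% interval of 0.37 to 0.87. The limma p was 0.0018 before and 0.307 after adjustment over 18436 genes, of which 102 had a smaller p and 315 a larger increase. Few reads stood behind these values. The smallest whole-read solution was 27 and 17 reads for the WT samples against 56 and 57 for the KI samples, and any common multiple gives the same RPKM. At those reads the exact 95% Poisson intervals were 0.856 to 1.89 and 0.724 to 1.99 RPKM in WT, and 1.90 to 3.26 and 1.86 to 3.19 RPKM in KI. The interval of each KI sample thus began near the upper end of the WT intervals. The multiple nearest to the annotated length is 2, or 54, 34, 112 and 114 reads, at which the intervals ended at 1.70 and 1.74 RPKM in WT and began at 2.07 and 2.03 RPKM in KI. These intervals cover counting error only.

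Drd3 and Drd4 were near the limit of detection in all 4 samples. Drd3, the D3 receptor gene, was listed at 0 in both WT samples and at 0.048 and 0.046 RPKM in KI, 1 read each. A count of 0 allows up to 0.154 RPKM in WT replicate 1 and 0.234 RPKM in WT replicate 2, above the KI values. Drd4, the D4 receptor gene, was at 0 and 0.085 RPKM in WT and at 0.052 and 0.050 RPKM in KI. No difference in either gene was detectable at this depth.

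**Figure D2:**
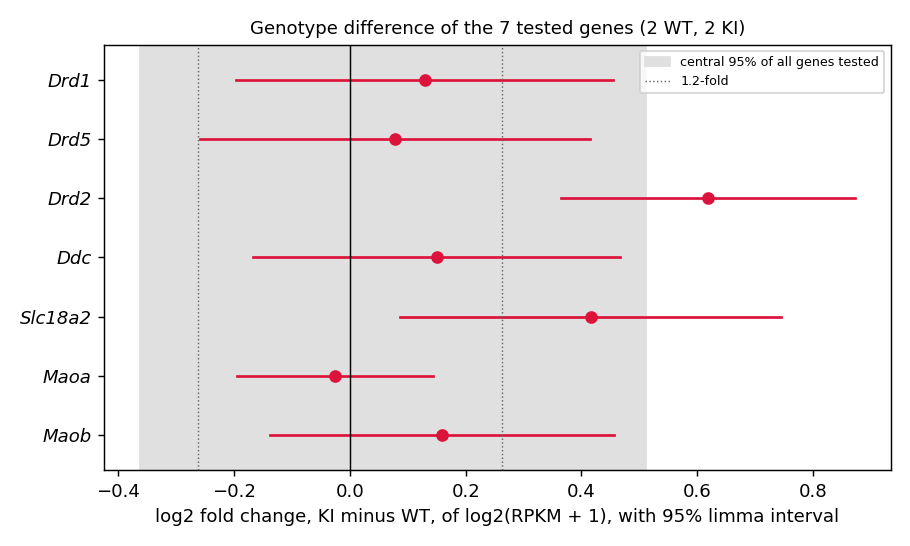
Fitted log2 fold change (x axis, KI minus WT on log2(RPKM + 1)) of the 7 tested genes, with 95% limma intervals, 2 samples per genotype. Grey marks the central 95% of all genes tested and dotted lines mark 1.2-fold. Drd2, at 0.62, lies outside the grey band, and Slc18a2, at 0.42, inside it.

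Shares within a sample do not depend on how samples are scaled to each other. Summed over the 5 receptor genes, expression was 9.05 and 8.52 RPKM in WT and 9.77 and 11.6 RPKM in KI. Drd2 made up 14.4% and 14.6% of this sum in WT and 25.7% and 21.2% in KI. Both KI shares were above both WT shares. Drd5 made up 74.7% and 71.2% in WT and 61.7% and 66.1% in KI, the largest share in every sample and a lower one in both KI samples. Reads of the antisense gene Gm26560 may be part of it. The RPKM of Drd5 itself overlapped between genotypes, and a higher Drd2 in the same sum lowers the other shares. The share of Drd1, 10.98% and 13.2% in WT and 11.5% and 11.9% in KI, overlapped. The ratio of Drd2 to Drd1 RPKM was 1.31 and 1.11 in WT and 2.24 and 1.78 in KI.

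**Figure D3:**
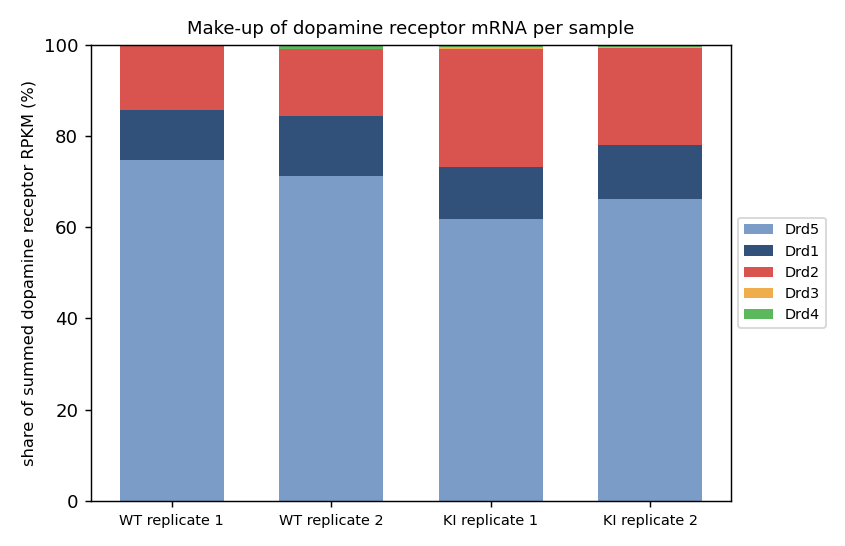
Share (y axis, percent) of each dopamine receptor gene in the summed RPKM of the 5 genes, for each of the 4 samples. The Drd2 share is 14.4% and 14.6% in WT and 25.7% and 21.2% in KI, and Drd5 is the largest share throughout.

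For synthesis, Ddc was at 0.886 and 0.914 RPKM in WT and at 1.22 and 1.00 RPKM in KI, from 36 to 78 reads. The groups did not overlap, but the KI samples lay farther apart than the lower of them lay from WT. The log2 fold change was 0.15 with a standard error of 0.12 (limma adjusted p = 0.726), and the interval included 0. For vesicular loading, Slc18a2 was at 2.23 and 1.82 RPKM in WT and at 3.29 and 2.78 RPKM in KI, from 61 to 180 reads. All KI values were above all WT values, by 1.24 to 1.81 times between single samples. The means were 2.03 ± 0.30 and 3.04 ± 0.36 RPKM (SD, n = 2 each), a ratio of 1.498. The log2 fold change was 0.42 with a standard error of 0.12 and an interval of 0.09 to 0.74. In limma across all genes tested, its p was 0.023 before and 0.478 after adjustment. Slc18a2 exceeded Ddc in every sample, by a ratio of 2.52 and 1.99 in WT and 2.71 and 2.77 in KI. Antisense genes of GENCODE M21 overlap part of Slc18a2 and Ddc as well (Gm29261 and 1700042O10Rik), and neither is listed in any sample. The deposited values are on Ensembl release 74, and a gene absent from that release could not be listed. Reads from the other strand of Slc18a2 and Ddc therefore cannot be judged from this.

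For breakdown, Maoa was at 7.42 and 7.67 RPKM in WT and at 7.29 and 7.50 RPKM in KI. The 4 values overlapped, and Maoa had the narrowest interval of the 7 genes, from a ratio of 0.873 to 1.10 (log2 fold change -0.03, standard error 0.06, limma adjusted p = 0.933). Maob was at 8.21 and 7.07 RPKM in WT and at 7.93 and 9.38 RPKM in KI, also overlapping (log2 fold change 0.16, standard error 0.11, limma adjusted p = 0.689). The ratio of Maob to Maoa was 1.11 and 0.922 in WT and 1.09 and 1.25 in KI. The 2 oxidase genes were therefore expressed at like levels, with no difference between genotypes beyond the spread of samples.

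Other genes of the pathway were read from 2 lists. Of 28 genes of monoamine synthesis, reuptake and breakdown, 15 were tested, 0 passed the threshold, 2 lay higher and 3 lower in both KI samples (24.0% and 18.1% of all genes tested did), and the median log2 difference was -0.03. Aldh2, a mitochondrial aldehyde dehydrogenase that acts after the monoamine oxidases, was at 14.3 and 14.6 RPKM in WT and at 18.2 and 17.5 RPKM in KI (log2 fold change 0.28, standard error 0.05, limma adjusted p = 0.340). Slc29a4, the plasma membrane monoamine transporter, was at 14.3 and 14.5 RPKM in WT and at 10.9 and 12.4 RPKM in KI (log2 fold change -0.29, standard error 0.08, limma adjusted p = 0.439). Gch1, needed for the cofactor of the aromatic hydroxylases, and Aldh1a1 had log2 fold changes of -0.14 and -0.13. Gch1 passed the filter of 0.5 RPKM only through the WT samples, so its place among the 3 lower genes was partly set by the filter. Th, the rate-limiting enzyme of dopamine synthesis, was at 0.284 and 0.240 RPKM in WT and at 0.029 and 0.057 RPKM in KI, on 9, 5, 1 and 2 reads. It was not tested, being under the filter in every sample.

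Of 41 genes of dopamine receptor signalling, all 41 were tested, 0 passed the threshold, 14 lay higher and 12 lower in both KI samples, against 24.0% and 18.1% of all genes, and the median log2 difference was 0.01. The sign of that median turned under other scalings, to -0.0010 with median-ratio scaling and -0.0063 with quantile normalization. Adcy6 and Adcy5, adenylyl cyclases that raise cAMP, had log2 fold changes of 0.26 and 0.21. Adcy5 was at 19.3 and 18.8 RPKM in WT and at 23.2 and 21.2 RPKM in KI (limma adjusted p = 0.483). Ptpn5, the striatal-enriched phosphatase STEP, had 0.19, Arpp21 0.17 and Ppp1r1b, the protein phosphatase inhibitor DARPP-32, 0.15. Kcnj6, a GIRK channel subunit opened by receptors of the D2 class, was at 9.24 and 7.88 RPKM in WT and at 7.11 and 7.05 RPKM in KI (log2 fold change -0.24, limma adjusted p = 0.516).

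**Figure D4:**
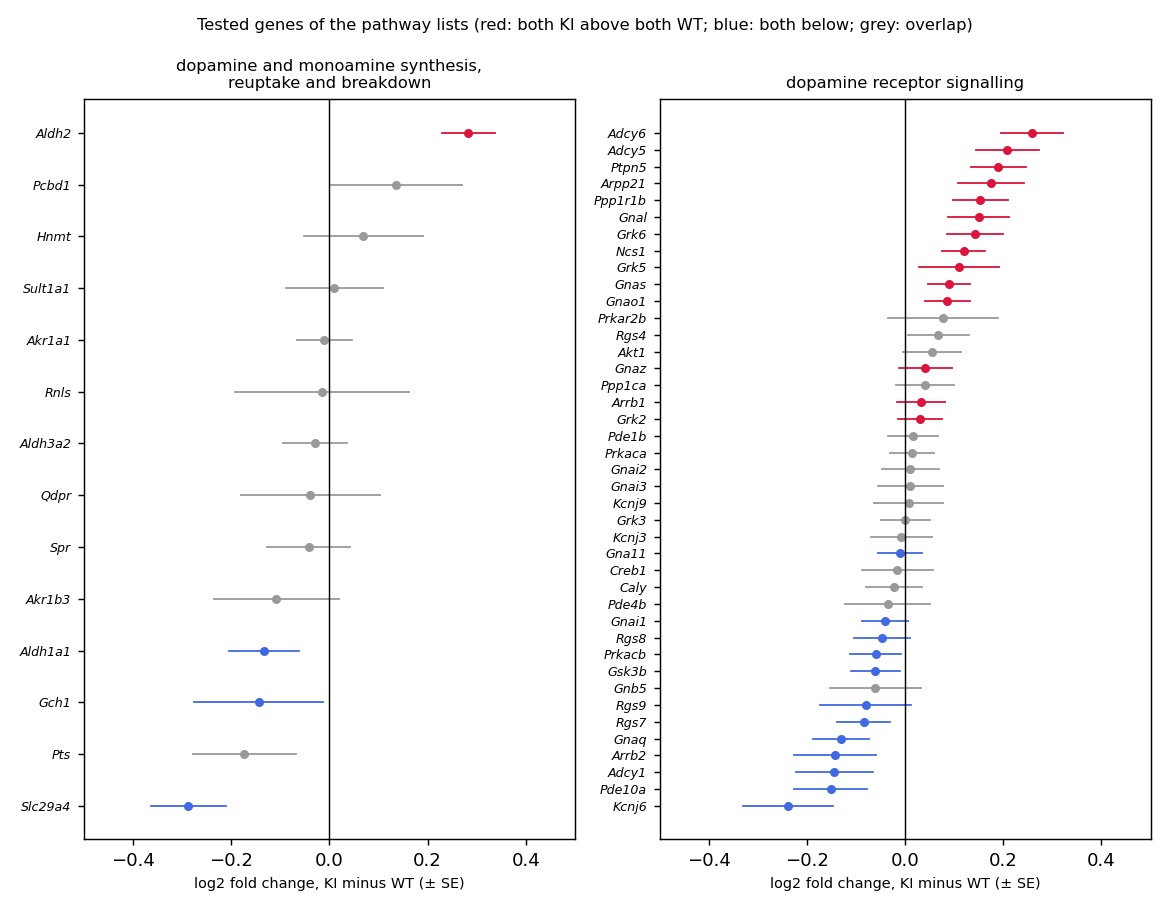
Log2 fold change (x axis, KI minus WT, bars are standard errors) of genes of the 2 pathway lists, 14 of the 15 tested in the left panel and all 41 in the right. Red genes had both KI values above both WT values, blue genes both below, and grey genes overlapped. Genes lie on both sides of 0 in each list.

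Tissue composition was read from marker lists. All 12 hippocampal markers were tested and present, at a summed 397 and 403 RPKM in WT and 361 and 392 RPKM in KI, and 6 of the 12 were lower in both KI samples, where 18.1% of all genes tested were. Among these were the 5 genes of dentate granule cells (Prox1, C1ql2, Dsp, Lct and Tdo2, a subset set apart after their values were seen), whose sum was 82.1 and 83.8 RPKM in WT and 55.4 and 65.6 RPKM in KI. In tissue samples, fewer cells of a type and less RNA per cell cannot be told apart. Of 15 markers of the striatum, where Drd1 and Drd2 are abundant, 10 were tested, of which 4 were higher and 2 lower in both KI samples (24.0% and 18.1% of all genes tested), and the sum of the 15 was 54.9 and 52.0 RPKM in WT and 61.4 and 55.6 RPKM in KI. Adora2a, an adenosine receptor gene that striatal neurons express together with Drd2, was at 0.412 and 0.313 RPKM in WT and at 0.521 and 0.686 RPKM in KI (limma adjusted p = 0.635). It passed the filter of 0.5 RPKM only through the KI samples, so its place among the 4 higher genes was partly set by the filter. The striatal genes Rgs9 and Pde10a were lower in both KI samples, with log2 fold changes of -0.08 and -0.15, and that of Adora2a was 0.23. These 3 genes were chosen after their values were seen. Of all 15 striatal markers, tested or not, 6 were higher and 2 lower in both KI samples. The untested among the higher ones, Gpr6 and Isl1, rested on at most 17 reads per sample. The shares of 24.0% and 18.1% cover tested genes only. The part of tissue composition in the Drd2 and Slc18a2 values was not tested.

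Most markers of monoamine neurons were under 0.5 RPKM in every sample, 8 of 10 for midbrain dopamine neurons and 8 of 8 for serotonin and noradrenaline neurons. Of the midbrain dopamine markers, En1, Foxa1 and Foxa2 were at 0 in every sample, Slc6a3, the dopamine transporter gene, was at 0 to 0.098 RPKM, and the 2 tested were Nr4a2, at 14.2 to 15.3 RPKM, and Aldh1a1, at 20.2 to 24.2 RPKM. The sum of the list was 39.0 and 37.7 RPKM in WT and 35.5 and 37.3 RPKM in KI. Of the serotonin and noradrenaline markers, Slc6a2, the noradrenaline transporter gene, was at 0 in every sample, and the sum was 0.736 and 0.705 RPKM in WT and 0.5001 and 0.635 RPKM in KI. For other cell types the sums were 31.4 to 36.4 RPKM for 5 mossy cell markers, 7.20 to 7.72 RPKM for 5 Cajal-Retzius markers, 429 to 447 RPKM for 6 astrocyte markers and 41.6 to 47.9 RPKM for 6 endothelial markers. The 7 choroid plexus markers summed to 60.2 RPKM in KI replicate 1, of which Ttr gave 51.3, and to 14.0 to 19.8 RPKM in the other samples. Of these 7 markers, 2 were tested, of which 1 was higher and 0 lower in both KI samples (24.0% and 18.1% of all genes tested). The higher one, Kl, was at 4.87 and 5.14 RPKM in WT and at 7.05 and 6.72 RPKM in KI (limma adjusted p = 0.340). Aqp1 and Otx2 were also higher in both KI samples, but were under 0.5 RPKM in every sample and not tested. Without KI replicate 1 the log2 differences of Drd2 and Slc18a2 were 0.61 and 0.32. The KI group is then a single sample, assumed to vary like the WT samples. The part of choroid plexus RNA in the values of both genes was not tested.

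**Figure D5:**
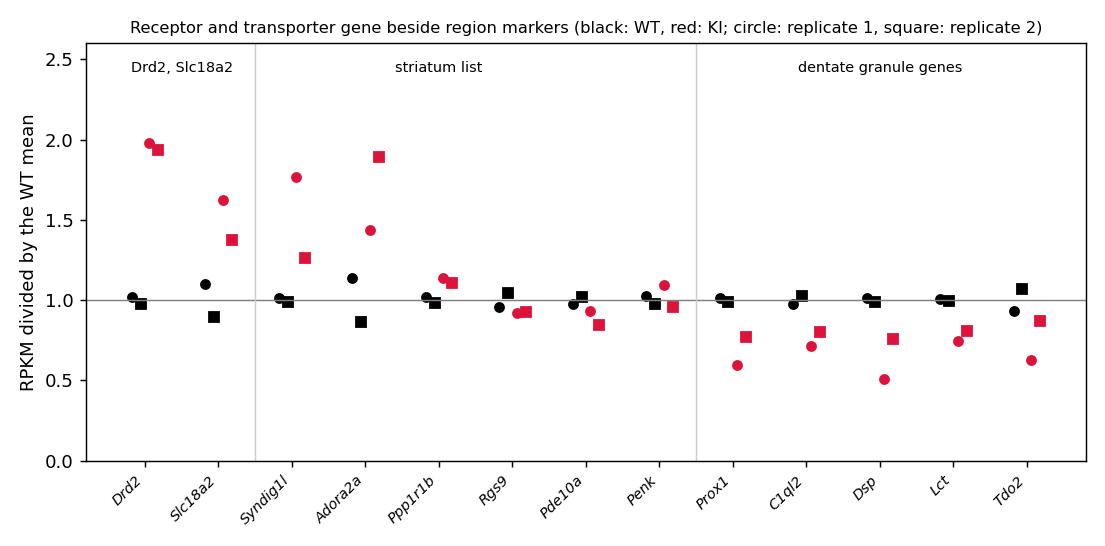
RPKM divided by the WT mean of the gene (y axis, linear) for Drd2, Slc18a2, striatal genes and dentate granule genes, in 2 WT (black) and 2 KI (red) samples. Of the striatal genes, Adora2a, Syndig1l and Ppp1r1b lie above both WT points in KI, Rgs9 and Pde10a below, and Penk overlaps. The 5 dentate genes lie below.

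The transcript of LSD1 itself, Kdm1a, was at 11.6 and 11.2 RPKM in WT and at 10.97 and 11.2 RPKM in KI (log2 fold change -0.04, limma adjusted p = 0.872). The point mutation changes no expression level by design, so this value does not check the labels. The genes most like Drd2 over the 4 samples, by Euclidean distance of centred log2(RPKM + 1), were Gm25640, Gm12238 and Scarna8. Each was at 0 in both WT samples and between 0.51 and 0.56 RPKM in KI. They passed the filter of 0.5 RPKM only through the KI samples and lay near it. The likeness is thus of differences and not of level. For Drd2, 26 genes lay within a distance of 0.1. The genes most like Slc18a2 were Hist1h2bg, Prdm16 and Gm12930, with 39 genes within 0.1. Gm12930 also passed the filter only through KI. Over 4 samples such likeness is a description and was not tested.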

How the data were processed

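Hippocampal poly(A) RNA of 2 WT and 2 KI samples was sequenced as read pairs. The authors aligned the reads to mm10 with GSNAP (named with CASAVA in the submitters' processing notes), retained read pairs that mapped uniquely and properly, and deposited RPKM per gene on Ensembl release 74 for each sample. The counting tool is not given in the sources used here. The study's own tool needs counts. The deposited values are RPKM, so limma (version 3.58.1, R 4.3.3), with a mean-variance trend, was run on log2(RPKM + 1) for the genes that reached 0.5 RPKM in 2 or more samples, with Benjamini-Hochberg adjustment. The code was tested on simulated data.

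Whole reads were worked out from the steps of the RPKM values. Of 26328 genes, 26315 had a whole-read solution (tolerance 1e-05) and 25117 (95.4%) an implied length within 0.01 of a whole number. Reads served for precision (exact 95% Poisson intervals, a floor of 3 reads) and 1 filter. Python 3.11.15, pandas 2.3.3, numpy 2.4.6 and scipy 1.17.1 were used.

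Positions are from GENCODE M21 and promoters from RefSeq, which gave windows for 8 of 9 genes. Primer sequences are those the study designed. The genes and lists were chosen with earlier results of these data known, and the study had itself followed up Drd2 and Slc18a2 from these samples. Of each pathway list, up to 6 non-overlapping genes with the largest change were named, and for Drd2 and Slc18a2 the 3 most alike genes. Some genes are not reported here. Normalization, filter, pseudocount, trend, replicate block and each left-out sample were varied.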

Additional observations from a re-analysis of the deposited data

How the results depend on the processing

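None of the 7 tested genes passed the threshold under any setting tried with all 4 samples. Drd3 and Drd4 entered the fit only with no filter, and did not pass there. Over all genes, 0 passed in the main comparison (1774 had an unadjusted limma p under 0.05) and 0 with a replicate block. There were 20 (17 higher, 3 lower) without the mean-variance trend. With at least 10 reads in every sample, an alternative chosen after seeing the data, there was 1 (0 higher, 1 lower), and 55 (45 higher, 10 lower) when the replicate block was added. The samples share only a number: deviations of same-numbered samples correlated at -0.025, and the labels tie them to no litter or day. As samples were left out in turn, the count over all genes stayed at 0 to 0. Of the 7 tested genes, 3 had KI separated above WT, and 3 to 6 as samples were left out, with 6 without KI replicate 1 (Drd1, Drd2, Drd5, Slc18a2, Maob and Ddc). With 3 samples left, separation is met more easily, by 37.6% to 39.5% of all genes against 24.0%.

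Over 13 alternatives, Drd2 had log2 fold changes of 0.57 to 0.92 (the highest with a pseudocount of 0.1) and Slc18a2 of 0.32 to 0.56. With all 4 samples, the limma adjusted p was 0.115 to 0.437 for Drd2 and 0.238 to 0.597 for Slc18a2. Filter, trend and replicate block leave the fitted difference unchanged, at 0.62 and 0.42. Leaving out 1 sample or changing the pseudocount cannot reverse groups that do not overlap. Only scaling could have turned the sign. Drd2 was at 0.61 and Slc18a2 at 0.41 with median-ratio scaling, and at 0.57 and 0.38 with quantile normalization. Drd5 turned to -0.0744 without KI replicate 2 and reached 0.23 without KI replicate 1. Without 1 sample, Ddc went from 0.08 (without KI replicate 1) to 0.22, and Drd1 from 0.05 to 0.21 and Maob from 0.05 to 0.27 (both lowest without KI replicate 2). A group of 1 sample is assumed to vary like the other. The median of the dopamine receptor signalling list, 0.01, was -0.0010 with median-ratio scaling and -0.0063 with quantile normalization. The cause was not tested for any of these. Depth limits Drd3 and Drd4, which held 0 or 1 read per sample in the smallest solution. Count models need counts as deposited and were not run.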
